A study of Mus musculus with 2 samples.

Results

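Histone and DNA modifying enzymes were followed in 2 RNA sequencing libraries from the apex of mouse embryonic hearts. The members are the genes whose symbols begin with Setd, Smyd, Suv, Ehmt, Mll, Dot1l, Jmjd, Kdm, Hdac, Sirt, Myst, Kat, Prmt, Carm1, Dnmt or Tet, with chromosome Y left out. This name rule used no measured value. It found 73 gene models under 72 symbols, of 29595 models and 29383 symbols in all. The table uses older names: 20 of the 72 symbols have another symbol in RefSeq today, so that Jmjd3 stands for Kdm6b, Mll2 for Kmt2d and Myst3 for Kat6a.

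The heterozygous control is labelled Nkx2-5cre, Ezh2f/+ and the mutant Nkx2-5cre, Ezh2f/f, both at stage E12.5. Both groups thus carry Cre recombinase driven by Nkx2-5, a gene of the heart lineage, and at least 1 floxed copy of Ezh2, so that the control is no wild type. The labels give cardiomyocyte as the cell type and name no sort. The apices of 8 hearts were pooled into 1 library per genotype, so differences between genotypes have no replicate check. Every interval below is a 95% exact Poisson interval of counting error alone.

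Histone modifying enzymes add or remove small chemical groups on the tails of the proteins that package DNA. Writers attach methyl or acetyl groups, erasers remove them, and the residue that carries the group sets whether the mark is found at active or silent genes. Methylation of lysine 27 of histone H3 (H3K27), placed by Ezh2 and Ezh1, marks silent developmental genes, while methylation of H3K4 marks promoters and enhancers in use. DNA methyltransferases place methyl groups on cytosine. In the developing heart, the muscle methyltransferase Smyd1, the deacetylases of class I and class IIa, Dot1l and Mll2 are known from mouse mutants with cardiac defects.

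Depth was nearly equal, with 13944617 counted reads for the control and 14122579 for the mutant. Ezh2, the targeted gene, had 493 reads in the control library and 319 in the one labelled mutant, a mutant-to-heterozygote ratio of 0.601 (0.521 to 0.694). All 10 cardiomyocyte markers were present in the heterozygote, from 88.0 CPM (read counts per 1000000 after scaling between libraries) for Nkx2-5 to 15440 CPM for Myl2. Other cell types were present too. The summed level of 10 endothelial and endocardial markers was 1148 CPM in the control and 1121 CPM in the mutant, and that of 10 epicardial and fibroblast markers 1123 and 1118 CPM. The 9 leukocyte markers at or above 1 CPM summed to 58.4 and 51.0 CPM, 7 erythroid markers to 13531 and 9146 CPM, and 5 neural markers to 9.24 and 11.4 CPM. In such bulk tissue, fewer cells of a type and less RNA per cell cannot be told apart, and the part of these other cells in the values below was not tested.

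Most of the enzymes differed little between the libraries, as did most genes. Of the 72 members, 69 reached 1 CPM in at least 1 library, while Dnmt3l, Jmjd2d and Prmt8 had 0 to 5 reads per library and are not compared. None of the 69 was 1.5-fold higher in the mutant and none 1.5-fold lower, on the scale log2((mutant CPM + 1)/(heterozygote CPM + 1)), called the log2 ratio below. Among all 16185 genes tested, 3.45% were that much higher and 1.88% that much lower. Of the 12875 genes at or above 5 CPM, where 67 of the members lie, 279 were that much higher and 159 lower. A count of 0 among 69 genes is close to these shares. With a threshold of 1.25-fold, chosen after the values were seen, 5 members were higher (7.25%, against 12.4% of all genes) and 4 were lower (5.80%, against 10.7%). The members' log2 ratios ran from -0.43 to 0.56, with quartiles at -0.08 and 0.22, and those of all genes from -1.90 to 3.37, with quartiles at -0.18 and 0.17. The extremes depend on the number of genes in each set. At or above 5 CPM the quartiles were -0.07 and 0.22 for members and -0.17 and 0.15 for all genes, of similar width.

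**Figure D1:**
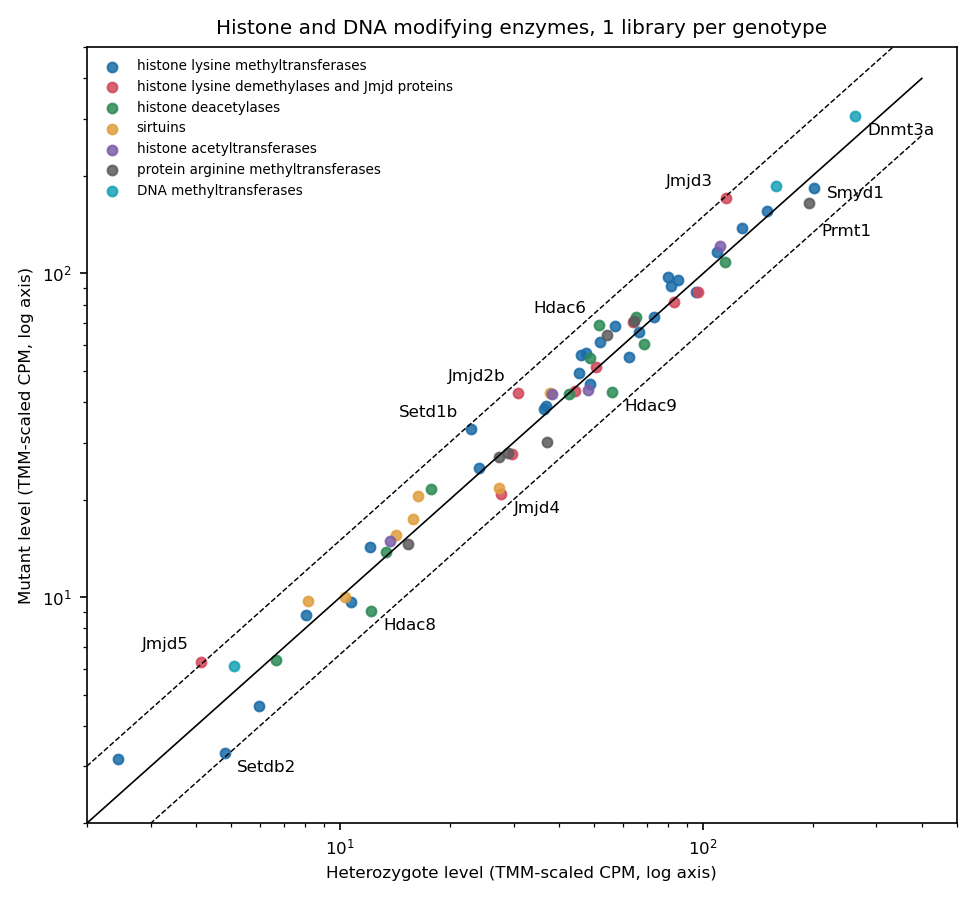
Scaled level (CPM, log axes) of the 69 members at or above 1 CPM in the heterozygote (x) and the mutant (y); colours give the enzyme family, the solid line equal levels and the dashed lines a ratio of 1.5 in either direction. Points lie along the line of equal levels from Setd4 (2.44 CPM in the heterozygote) to Dnmt3a (262 CPM), and Jmjd3, Setd1b and Jmjd5 are those nearest the upper dashed line.

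More members lay above 0 than below. The median log2 ratio of the 69 was 0.10, beside -0.008 for all genes tested, and 42 members (60.9%) were above 0, beside 48.8% of all genes. Of the 67 members at or above 5 CPM in a library 41 were above 0 (61.2%), beside 47.0% of all genes at that level. The counting interval of the plain ratio lay above 1 for 23 members and below 1 for 11, and it spanned 1 for 35. Over all genes these shares were 17.4% above and 19.1% below, and 19.2% and 22.6% among genes at or above 5 CPM. Scaling by the total read count moved the members' split to 29 above and 5 below, and that of all genes to 26.3% and 11.4%. Members were also sequenced more deeply than the typical gene, with a median level of 45.8 CPM against 19.0 CPM for all genes, which narrows their intervals.

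**Figure D2:**
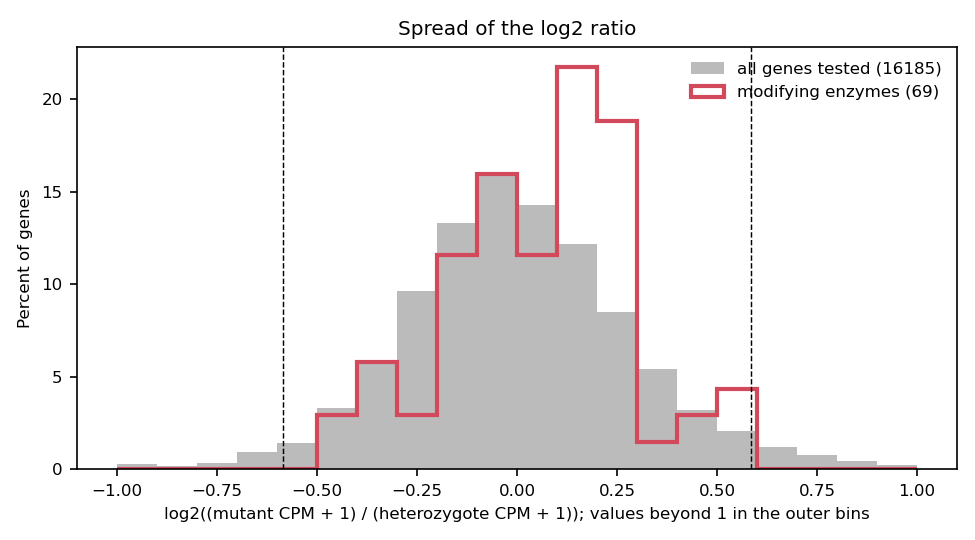
Percent of genes per bin of log2 ratio for all 16185 genes tested (grey) and the 69 members (red outline), with dashed lines at 1.5-fold. The members fill the bins between -0.43 and 0.56 and leave the bins beyond the dashed lines empty.

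The sequences upstream of 5 members show how different their promoters are. They are the 2 highest (Hdac6, Dot1l) and the 2 lowest (Jmjd4, Hdac8) in log2 ratio among members with 1 promoter entry and at least 200 reads, and Smyd1 as the muscle-restricted member. Each is the run of 250 bases before the annotated start in RefSeq, with every CG dinucleotide, the site of DNA methylation and the same on both strands, in capitals.
Hdac6 (GRCm38.p6 chrX:7947890-7948139, minus strand): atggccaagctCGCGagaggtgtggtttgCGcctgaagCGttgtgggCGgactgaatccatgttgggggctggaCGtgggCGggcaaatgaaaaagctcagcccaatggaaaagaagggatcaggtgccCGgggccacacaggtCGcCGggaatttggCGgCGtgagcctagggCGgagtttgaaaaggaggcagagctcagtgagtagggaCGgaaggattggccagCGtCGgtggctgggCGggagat
Dot1l (GRCm38.p6 chr10:80754953-80755202, plus strand): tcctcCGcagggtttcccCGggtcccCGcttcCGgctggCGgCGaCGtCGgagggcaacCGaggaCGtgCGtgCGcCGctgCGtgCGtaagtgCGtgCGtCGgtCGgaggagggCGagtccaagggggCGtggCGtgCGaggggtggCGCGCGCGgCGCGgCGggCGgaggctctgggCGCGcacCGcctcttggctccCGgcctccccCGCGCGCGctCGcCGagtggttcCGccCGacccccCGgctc
Jmjd4 (GRCm38.p6 chr11:59449795-59450044, plus strand): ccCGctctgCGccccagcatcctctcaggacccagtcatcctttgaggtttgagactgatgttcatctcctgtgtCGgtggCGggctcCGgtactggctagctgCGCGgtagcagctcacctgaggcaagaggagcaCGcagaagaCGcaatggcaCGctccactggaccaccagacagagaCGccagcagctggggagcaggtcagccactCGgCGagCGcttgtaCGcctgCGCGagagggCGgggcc
Hdac8 (GRCm38.p6 chrX:102505159-102505408, minus strand): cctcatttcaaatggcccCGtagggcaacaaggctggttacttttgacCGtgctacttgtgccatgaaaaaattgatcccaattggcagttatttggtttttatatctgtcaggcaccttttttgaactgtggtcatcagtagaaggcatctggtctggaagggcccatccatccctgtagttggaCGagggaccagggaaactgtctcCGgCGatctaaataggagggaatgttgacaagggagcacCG
Smyd1 (GRCm38.p6 chr6:71262282-71262531, minus strand): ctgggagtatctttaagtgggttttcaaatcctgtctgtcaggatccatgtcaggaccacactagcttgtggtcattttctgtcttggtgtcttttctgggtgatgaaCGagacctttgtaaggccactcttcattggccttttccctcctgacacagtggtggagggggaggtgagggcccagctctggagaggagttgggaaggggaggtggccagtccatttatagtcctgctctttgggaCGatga
Dot1l holds 44 CG in these 250 bases, Jmjd4 18, Hdac6 17, Hdac8 6 and Smyd1 2. The observed count over that expected from the base composition was 1.15, 0.686, 0.843, 0.415 and 0.126 in the same order. Of 42 members with 1 entry, 34 (81.0%) had a value of at least 0.6, beside 70.4% of 8349 genes tested with 1 entry. Across the 42 members this value and the log2 ratio had a Spearman rho of 0.0954, given as a description with no test. No entry was matched for 11 members, Jmjd3, Setd1b and Jmjd2b among them, and 16 had several.

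The family of histone lysine demethylases and other Jmjd proteins held the members with the 2 highest plain ratios, Jmjd5 and Jmjd3. These 10 Jumonji proteins use iron and oxygen, most of them to strip methyl groups, while Jmjd4, Jmjd5 and Jmjd6 are known as hydroxylases of other proteins. Jmjd3, the H3K27 demethylase, had 1559 reads in the control library and 2487 in the mutant library, or 115 and 171 CPM. Its mutant-to-heterozygote ratio was 1.48 (1.39 to 1.58), the highest log2 ratio of all members (0.56), and 3.78% of all genes tested were higher still. With total-count scaling Jmjd3 and Setd1b passed 1.5-fold, and on removal of the trend of log2 ratios with GC content and transcript length the value of Jmjd3 was 0.28. The gene lies on chromosome 11 (69212020 to 69227175, minus strand, in the files' coordinates).

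Utx, the other H3K27 demethylase (now Kdm6a, outside the name rule), had 457 and 579 reads, with a ratio of 1.18 (1.04 to 1.33). Summed, the H3K27 demethylase transcripts were at 149 CPM in the control and 211 CPM in the mutant, and the methyltransferases Ezh2 and Ezh1 at 52.6 and 36.8 CPM. The floxed gene Ezh2 is itself one of the latter, and Ezh1 had 219 and 217 reads, with a ratio of 0.921 (0.760 to 1.12). Utx is X-linked and is one of the genes known to escape X inactivation. Xist, the RNA of the inactive X, was higher in the mutant library (ratio 1.73, 1.65 to 1.7997) and the sum of Ddx3y, Eif2s3y, Uty and Jarid1d on the Y chromosome lower (0.696, 0.642 to 0.755). The part of the pools' sex composition in the X-linked values was not tested.

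Of the H3K9 demethylases, Jmjd2b had 417 and 620 reads (30.8 and 42.6 CPM, ratio 1.38, 1.22 to 1.57). A second model inside it, mKIAA0876, which can count the same reads, had 153 and 278, with a ratio of 1.69 (1.38 to 2.07). Its relatives were close to equal, with ratios of 0.979 (0.901 to 1.06) for Jmjd2a, 0.927 (0.805 to 1.07) for Jmjd2c and 1.01 (0.913 to 1.13) for Jmjd1a. Jmjd1b was at 1.10 (1.01 to 1.21), and Jmjd1c, the largest of its subfamily in this table with 1312 and 1276 reads, at 0.904 (0.836 to 0.977). Jmjd5 had 56 and 92 reads and the highest plain ratio, 1.53 (1.08 to 2.17), with a wide interval at 4.14 and 6.32 CPM. Its log2 ratio of 0.51 stayed under the threshold because 1 CPM is added to each level, and with 0.1 CPM added it passed. Jmjd4 was on the other side, with 376 and 303 reads and a ratio of 0.749 (0.642 to 0.873), while Jmjd6 was at 0.980 (0.875 to 1.10). The family as a whole had 5 of 10 log2 ratios above 0, beside 48.8% of all genes. Its median was -0.004 and was above 0 under the other scalings.

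**Figure D3:**
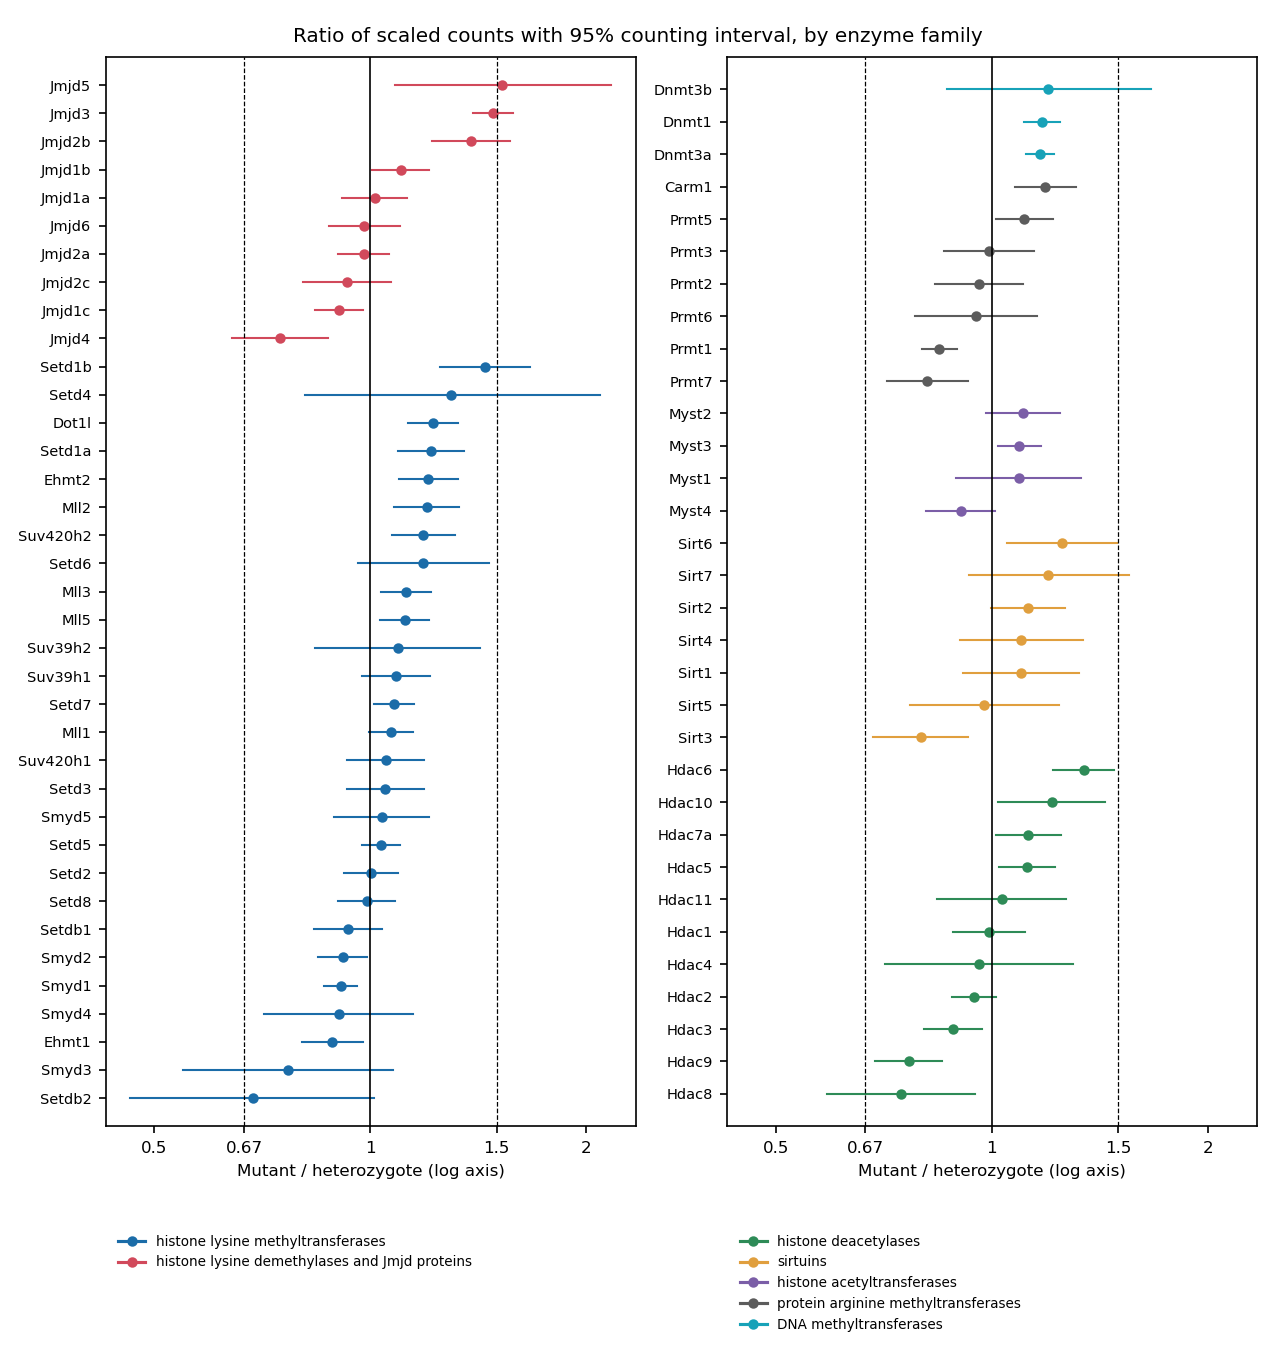
Plain ratio of scaled counts, mutant over heterozygote (log axis), for the 69 members by family, with 95% counting intervals as bars, a solid line at 1 and dashed lines at 1.5-fold; Setd6 is the sum of 2 loci. Jmjd3, Jmjd2b, Setd1b and Hdac6 have bars that start at 1.22 or higher, and Hdac9 and Jmjd4 bars that end at 0.853 and 0.873.

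The 6 genes grouped as H3K4 writers were Setd1a, Setd1b, Mll1, Mll2, Mll3 and Setd7. All had log2 ratios above 0, beside 48.8% of all genes. So did the H3K27 erasers (2 of 2), H3K36 erasers (2 of 2) and H3K79 writers (1 of 1). Not put in the H3K4 group were Smyd1, Smyd2, Smyd3 and Prdm9, at -0.14, -0.13, -0.32 and -0.17. Nor were Mll5 and Wbp7, another Mll gene, at 0.16 and 0.31. Jmjd2a, Jmjd2b and Jmjd2c, at -0.03, 0.45 and -0.11, were counted as H3K9 erasers alone. Setd1b, a catalytic subunit of the Set1 complexes, had 309 and 480 reads (22.8 and 33.0 CPM, ratio 1.44, 1.25 to 1.67). Its paralog Setd1a had 624 and 816 (1.22, 1.09 to 1.35). The Mll genes, large methyltransferases of promoters and enhancers, had ratios of 1.07 (0.997 to 1.15) for Mll1, 1.20 (1.08 to 1.33) for Mll2, 1.12 (1.03 to 1.21) for Mll3 and 1.12 (1.03 to 1.21) for Mll5, a relative with no firmly established activity on H3K4. Setd7, which methylates H3K4 and other proteins once, was at 1.08 (1.01 to 1.15). The 6 H3K4 writers, without Mll5, had a median log2 ratio of 0.21, with 5 of 6 counting intervals above 1, beside 17.4% of all genes and 19.2% of those at or above 5 CPM. After removal of the GC and length trend 4 of the 6 were above 0, with a median of 0.06. The log2 ratio of Mll2 went from 0.26 to -0.08. The Mll2 transcript used there has 19823 bases, more than its deposited model spans (chromosome 15, 98664116 to 98674696). That Mll2 value thus rests in part on sequence outside the counted model. The transcripts of the 6 writers are rich in GC, with a median of 53.8%, beside 49.8% for all genes tested.

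The grouping by residue was made after the values were seen and holds 23 writers and 14 erasers at or above 1 CPM. Of the writers 14 were above 0 and of the erasers 10, with medians of 0.08 and 0.12. Over all genes tested 48.8% were above 0, with a median of -0.008. Jmjd1c, at -0.14, was not put among the erasers. Nor were its relatives Phf2, Phf8 and Jhdm1d, at 0.11, 0.34 and 0.16. The 5 H3K36 methyltransferases, Setd2 and the Nsd1, Whsc1, Whsc1l1 and Ash1l genes outside the name rule, all had intervals that span 1 and a median of -0.009, which is above 0 under the other scalings. Setd2, which trimethylates H3K36 behind elongating polymerase, had 987 and 1065 reads, a ratio of 1.003 (0.919 to 1.09). Dot1l, the H3K79 methyltransferase, had 1079 and 1421 reads and a ratio of 1.22 (1.13 to 1.33), and its log2 ratio of 0.29 became 0.05 on removal of the GC and length trend. The H4K20 enzymes were at 0.988 (0.901 to 1.08) for Setd8, 1.05 (0.929 to 1.19) for Suv420h1 and 1.19 (1.07 to 1.31) for Suv420h2.

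**Figure D4:**
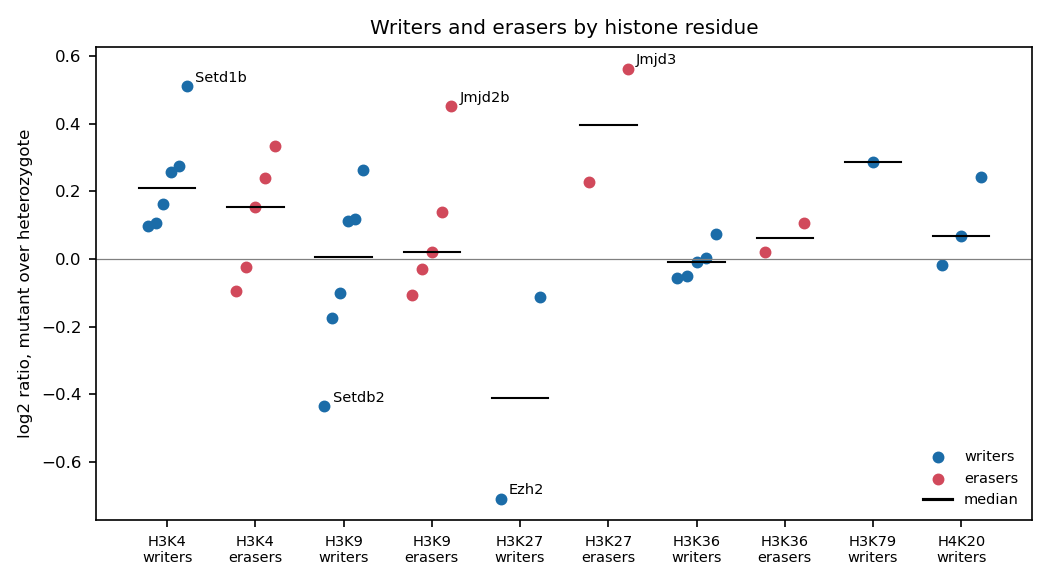
log2 ratio of writers (blue) and erasers (red) at or above 1 CPM by histone residue, members and other genes of the same function; horizontal bars are medians. All 6 genes grouped as H3K4 writers lie above 0, Jmjd3 is the highest point at 0.56 and Ezh2, the floxed gene, the lowest at -0.71.

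The H3K9 methyltransferases mark silent chromatin, and 3 of 6 lay above 0, beside 48.8% of all genes. Ehmt1 and Ehmt2 form 1 heterodimeric enzyme, and Ehmt1 had 842 and 802 reads (0.885, 0.802 to 0.976) while Ehmt2 had 772 and 1001 (1.20, 1.10 to 1.33). The models glp and G9a inside these genes had ratios of 0.853 (0.715 to 1.02) and 1.21 (0.998 to 1.47). Transcripts of Ehmt2 are 60.8% GC and those of Ehmt1 51.2%, and the log2 ratio of Ehmt2 went from 0.26 to -0.00036 on removal of the GC and length trend. Suv39h1 and Suv39h2, which mark pericentric heterochromatin, had ratios of 1.09 (0.974 to 1.21) and 1.09 (0.839 to 1.42). Setdb1 was at 0.932 (0.835 to 1.04), and Setdb2, with 65 and 48 reads, at 0.686 (0.462 to 1.01), the lowest log2 ratio of all members (-0.43).

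Smyd genes encode methyltransferases with a SET domain split by a zinc finger. Smyd1, required for heart muscle formation in mice, had 2737 reads in the control library and 2679 in the mutant library (202 and 184 CPM, ratio 0.909, 0.862 to 0.960). Smyd2 had 1294 and 1275 (0.916, 0.847 to 0.990). Per kilobase of the longest GENCODE transcript, Smyd1 (60.2 CPM in the control and 54.8 in the mutant) and Smyd2 (56.0 and 51.3) were well above Smyd5 (8.60 and 8.92), Smyd4 (3.05 and 2.75) and Smyd3 (0.871 and 0.670). The deposited models may be shorter than these transcripts, which would move levels on this scale. Ratios of the others were 1.04 (0.891 to 1.21) for Smyd5, 0.904 (0.711 to 1.15) for Smyd4 and 0.769 (0.548 to 1.08) for Smyd3. Beside these values, the sarcomere genes Tnnt2 and Actc1 had ratios of 0.908 and 0.886, and the 10 cardiomyocyte markers ran from 0.805 for Tnni3 to 1.40 for Myh6; their part in the Smyd1 value was not tested.

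Among the remaining SET genes, Setd5 had 2031 and 2262 reads (1.03, 0.974 to 1.10), Setd3, now known as an actin histidine methyltransferase, 491 and 554 (1.05, 0.927 to 1.19), and Setd4 33 and 46 (1.30, 0.810 to 2.09). The symbol Setd6 covers 2 loci. The model on chromosome 8 had 72 and 70 reads (0.903, 0.641 to 1.27). The model on chromosome 2 had 91 and 138 (1.41, 1.07 to 1.86) and lies at Prex1, an unrelated gene for which RefSeq lists Setd6 as a synonym. Counts and medians above use their sum, with a ratio of 1.19 (0.961 to 1.46). Together the 27 methyltransferase genes had 19 log2 ratios above 0 and a median of 0.10, beside 48.8% and -0.008 for all genes tested. Setd6 is among those above 0 by this sum, while its chromosome 8 model alone was at -0.12. After removal of the trend with GC content and length, 16 of the 27 were above 0, with a median of 0.04.

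Class I deacetylases are broadly expressed, and Hdac1, Hdac2 and Hdac3 are enzymes of the Sin3, NuRD and NCoR complexes. The class had 4 of 4 log2 ratios below 0, beside 8288 of all 16185 genes tested. Hdac1 was above 0 under each of the other scalings. Hdac1 had 578 and 617 reads (0.992, 0.884 to 1.11) and Hdac2 1554 and 1580 (0.945, 0.880 to 1.01). Hdac3 was at 0.884 (0.805 to 0.971) and Hdac8, with 164 and 132 reads, at 0.748 (0.590 to 0.946). The class median of -0.13 was -0.04 under total-count scaling, where Hdac1 and Hdac2 were above 0, and -0.04 on removal of the GC and length trend, where the same was so. Per kilobase of transcript Hdac2 (35.3 CPM in the heterozygote, 33.4 in the mutant) was above Hdac1 (20.97 and 20.8) and Hdac3 (19.1 and 16.9), and Hdac8 was lowest (5.35 in the heterozygote).

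Class IIa deacetylases bind the Mef2 factors of muscle and shuttle out of the nucleus on kinase signals. Hdac9 had 758 reads in the control library and 625 in the mutant library, a ratio of 0.766 (0.688 to 0.853). Inside it the model Hdrpa, described as a deacetylase-related protein, had 286 and 215 reads (0.699, 0.583 to 0.837), while mKIAA0744 had 78 and 82 (0.977, 0.708 to 1.35). Hdac5 had 884 and 1066 (1.12, 1.02 to 1.23), Hdac7a 659 and 797 (1.12, 1.01 to 1.25) and Hdac4 90 and 93 (0.960, 0.711 to 1.30). The interval of Hdac9 thus did not overlap those of Hdac5 and Hdac7a. The latter have the GC-rich transcripts of the class (59.8% and 60.2%, against 45.0% for Hdac9), and on removal of the GC and length trend both went to -0.11 on the log2 scale while Hdac9 went from -0.38 to -0.37. The class summed to 177 CPM in each library. Their 4 Mef2 partners did not share a direction, with ratios of 1.11 (1.04 to 1.19) for Mef2a, 1.08 (1.02 to 1.15) for Mef2d, 1.003 (0.806 to 1.25) for Mef2b and 0.901 (0.831 to 0.978) for Mef2c.

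Class IIb was higher. Hdac6, the cytoplasmic deacetylase of tubulin, had 697 and 1007 reads (51.5 and 69.2 CPM, ratio 1.34, 1.22 to 1.48), and its log2 ratio of 0.42 was 0.32 on removal of the GC and length trend. Hdac10, a polyamine deacetylase, had 240 and 313 (1.21, 1.02 to 1.44), and Hdac11, the single member of class IV, 181 and 201 (1.03, 0.840 to 1.27). Hdac6, Hdac8 and Suv39h1 are the X-linked members, and with ratios of 1.34, 0.748 and 1.09 they did not share a direction.

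Sirtuins, deacylases that consume NAD, had 5 of 7 log2 ratios above 0 and a median of 0.13. Over all genes tested these values were 48.8% and -0.008. The nuclear Sirt6 had 222 and 299 reads (1.25, 1.05 to 1.496) and the nucleolar Sirt7 110 and 142 (1.20, 0.929 to 1.55). Sirt1 was at 1.10 (0.912 to 1.32) and the cytoplasmic Sirt2 at 1.12 (0.997 to 1.26). Of the 3 mitochondrial sirtuins, Sirt3, the main mitochondrial deacetylase, had 369 and 316 reads (0.796, 0.683 to 0.927), while Sirt4 was at 1.10 (0.902 to 1.34) and Sirt5 at 0.976 (0.768 to 1.24). The gene Ric8 overlaps Sirt3 on the opposite strand, with 296 and 282 reads. Whether counting used the strand is not known here, so reads of such pairs cannot be told apart.

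Acetyltransferases of the Myst family were at 1.09 (0.892 to 1.33) for Myst1, 1.11 (0.983 to 1.25) for Myst2, 1.09 (1.02 to 1.17) for Myst3 and 0.905 (0.810 to 1.01) for Myst4. Myst3 and Myst4 are paralogs of 1 complex. Their counting intervals, which hold no spread between pools, nearly touched, with ends at 1.02 and 1.01.

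Arginine methyltransferases were mixed. Prmt1, the main source of asymmetric dimethylarginine, had 2641 and 2402 reads (195 and 165 CPM, ratio 0.845, 0.799 to 0.893) and the highest level of all members per kilobase of transcript, 90.9 CPM in the control and 76.8 in the mutant. A second model of it, Mrmt1, had 1596 and 1466 reads (0.854, 0.795 to 0.917). Prmt7 had 503 and 440 (0.813, 0.714 to 0.926). Carm1, a coactivator with 734 and 937 reads (1.19, 1.08 to 1.31), and Prmt5, the main symmetric methyltransferase, with 869 and 1038 (1.11, 1.01 to 1.22), were on the other side. Prmt2, Prmt3 and Prmt6 had ratios from 0.952 to 0.992 with intervals that span 1. Unlike many members, Prmt1 (54.7% GC) was farther from 0 on removal of the GC and length trend, at -0.29 against -0.24.

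DNA methyltransferases had nearly equal ratios. Dnmt1, which copies methylation after replication, had 2145 reads in the control library and 2713 in the mutant library (159 and 186 CPM, ratio 1.18, 1.11 to 1.24). Dnmt3a, which places new methylation, had 3549 and 4462 (262 and 306 CPM, 1.17, 1.12 to 1.22), the highest read count of all members. Dnmt3b had 69 and 89 (1.20, 0.865 to 1.67). Per kilobase of transcript Dnmt1 (27.01 CPM in the control and 31.7 in the mutant) and Dnmt3a (27.1 and 31.6) were level, and Dnmt3b was at 1.18 and 1.42. Their median log2 ratio of 0.22 was 0.08 on removal of the GC and length trend.

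GC content accompanied these values throughout. Across the 69 members, which share the same 2 libraries, the log2 ratio and the GC content of the longest transcript had a Spearman rho of 0.63, and across 13257 tested genes 0.41. Among the 23 members lowest in GC (41.9% to 48.3%) 10 lay above 0, with a median of -0.03. Of the 6162 genes with GC up to that upper limit 32.4% lay above 0, with a median of -0.10. Among the 23 highest (53.6% to 60.8%) 19 lay above 0, with a median of 0.24. Of the 4027 genes with GC from that lower limit up 69.8% lay above 0, with a median of 0.13. Removal of the trend left 40 of 69 members above 0 and a median of 0.05, beside 48.1% and -0.010 for all genes. In all, 12 members changed sign.

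**Figure D5:**
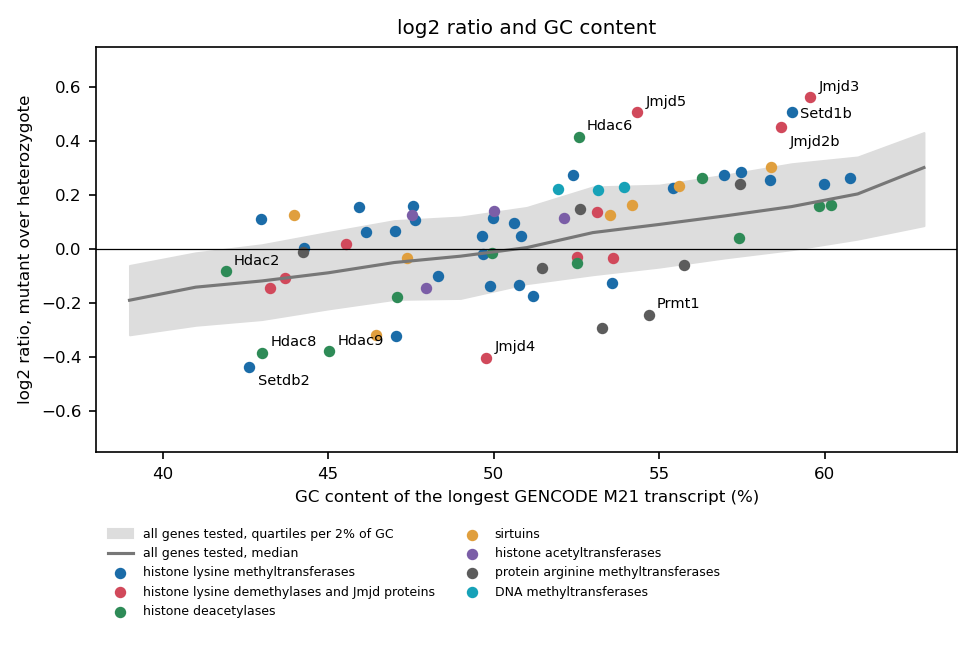
log2 ratio against the GC content of the longest transcript for the 69 members (points, coloured by family) and for all genes tested (line, median; band, quartiles per 2% of GC). Members follow the rising line, and those outside the band include Hdac6, Jmjd5 and Jmjd3 above it and Jmjd4, Prmt1, Hdac8 and Hdac9 below it.

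Other genes of the same functions were read from lists. Of 10 other histone methyltransferases at or above 1 CPM, Ezh2 was more than 1.5-fold lower and Prdm16, a heart and fat regulator with a SET-related domain, more than 1.5-fold higher (446 and 737 reads, 1.54, 1.36 to 1.73), with a list median of -0.05. Of 13 further demethylases and relatives under older names 10 were above 0, with a median of 0.15, beside 48.8% of all genes above 0. Of their counting intervals 7 lay above 1 and 0 below, beside 17.4% and 19.1% of all genes. Fbxl11 was at 1.08 (1.01 to 1.15) and Jarid1c at 1.11 (1.04 to 1.19). The 10 other acetyltransferases had a median of 0.01, with Ep300 at 1.16 (1.08 to 1.25) and Ncoa2 at 1.04 (0.959 to 1.14). Hat1, singled out after its value was seen, had 1065 and 836 reads (0.729, 0.665 to 0.799).

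The partners of these enzymes differed as little. None of the 23 corepressor genes was 1.5-fold apart. Their median was 0.03, Chd4 was at 1.15 (1.12 to 1.20) and Ncor1 at 0.996 (0.948 to 1.05). The 8 subunits of the Mll complexes had a median of 0.09 and none was 1.5-fold apart, with Hcfc1 at 1.07 (1.01 to 1.14) and Ncoa6 at 1.01 (0.924 to 1.11). The 12 readers and cofactors of DNA methylation had a median of 0.05, with Apobec2, a muscle gene of the deaminase family, at 0.720 (0.680 to 0.763).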

How the data were processed

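RNA from 1 pool of 8 heart apices per genotype was sequenced from full-length transcript libraries (labels' protocol). The deposited table gives whole-number read counts per gene model, per the file headers. It also gives the authors' CPM, counts per 1000000 of a library's own total, which were checked against the counts (largest difference 4.91e-11) but not used further. The deposited fold, a ratio of heterozygote over mutant CPM, and the deposited p-value, of a test not given in the sources used here, were not used. The sources used here name no aligner, counter, strand setting or genome build.

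Rows of 1 symbol were summed. Counts were scaled with TMM (edgeR 4.0.16, R 4.3.3; factors 0.970 and 1.03). Genes at or above 1 CPM in a library were compared (called tested in the text) with a size threshold of 1.5-fold and a pseudocount of 1 CPM, and plain ratios carry 95% exact conditional Poisson intervals of counting error only. Without molecular identifiers, reads are not independent molecules. No test of genotype is possible with 1 library each. The procedure was tested on simulated Poisson counts, which hold counting error alone and so cannot test the spread between pools. For GC content and length, the longest transcript per symbol in GENCODE M21 was taken (81.9% of tested genes, 69 of 69 members). Promoters came from RefSeq (GRCm38.p6), and all 72 symbols matched RefSeq by symbol or synonym on the same chromosome. Coordinates are the files' own, with 1 added to starts.

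Members, families, lists and the rule for named genes were chosen with earlier results of these data known. The rule names members at least 1.5-fold apart, the 3 highest of each family, fixed sets of paralogs, and at most 2 genes per other list. All other members and genes named, the 1.25-fold threshold and the residue groups were chosen after the values were seen. Overlapping models on the same strand, which can count the same reads, concern 17 members, and models on the opposite strand 10. Alternatives were other scalings (DESeq2 1.42.0 size factors, upper quartile, total count), pseudocounts, floors, folds, removal of a trend quadratic in GC content and in log length, and the row with the most reads per symbol. Some genes of the other lists are not reported here.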

Additional observations from a re-analysis of the deposited data

How the results depend on the processing

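No paired analysis was possible because each genotype has 1 library, and for the same reason no replicate could be left out. The count of members at least 1.5-fold higher was 0 and was 2 with total-count scaling (Jmjd3 and Setd1b) and 1 with a pseudocount of 0.1 CPM (Jmjd5). The count of members at least 1.5-fold lower was 0 and stayed at 0 under each scaling, pseudocount, floor, trend removal and choice of row that was run. With a threshold of 1.25-fold, chosen after seeing the data, the counts were 5 higher and 4 lower. The median log2 ratio of the members was 0.10, between 0.05 (GC and length trend removed) and 0.18 (total-count scaling, which adds 0.09 to log2 ratios and takes the median of all genes to 0.07). Removal of the GC and length trend turned the direction of 4 members whose counting interval excluded 1. They went to -0.00036 for Ehmt2, -0.11 for Hdac5, -0.11 for Hdac7a and -0.080 for Mll2, and the cause was not tested. For Mll2 the transcript used for the trend is longer than the deposited model. Of the 69 members, 59 kept their sign under all 4 scalings. Leaving out the 17 members with an overlapping model on their strand, chosen after seeing the data, left a median of 0.08 over 52. Depth limits the members with few reads most, as for Setdb2, Jmjd5, Smyd3 and Setd4, and the spread between pools of hearts was not measured.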

Other observations

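Enzymes of the same families that the table lists under other old symbols, looked up after the members' values were seen, had the following ratios. Wbp7, the Mll gene now called Kmt2b, had 714 reads in the control library and 958 in the mutant library, a ratio of 1.25 (1.13 to 1.38). Cxxc6, now Tet1, an enzyme that oxidises methylated cytosine, had 79 and 109 (1.28, 0.951 to 1.74). The acetyltransferase genes Gcn5l2, Pcaf and Htatip, now Kat2a, Kat2b and Kat5, had ratios of 1.07 (0.944 to 1.21), 0.979 (0.841 to 1.14) and 1.02 (0.888 to 1.16). Aof2, now Kdm1a, the H3K4 demethylase of the CoREST complex, had 722 and 983 reads and a ratio of 1.27 (1.15 to 1.39), and its paralog Aof1 114 and 114 (0.929, 0.710 to 1.22). Jarid1b, another H3K4 demethylase, was at 1.18 (1.08 to 1.30), and Jarid1a at 0.984 (0.896 to 1.08).

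Of 19 models that overlap a member on its strand, 18 had a log2 ratio of the same sign as that member (such models can count the same reads). Among them, mKIAA1933 inside Prmt7 had 352 and 270 reads (0.713, 0.606 to 0.838), against 0.813 for Prmt7, and AK154113 inside Mll5 had 96 and 135 (1.31, 0.998 to 1.72), against 1.12 for Mll5.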
